A study of Mus musculus with 96 samples.

Results

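Trimethylation of lysine 4 of histone H3 (H3K4me3) was compared between sorted hippocampal neurons of mice lacking both Ogg1 and Mutyh (DKO) and those of wild-type (WT) mice. The comparison used all 12628 consensus H3K4me3 peaks of NeuN+ nuclei, of which 11771 were annotated as promoter peaks, and 3 DKO and 3 WT libraries of the 96 samples of the series. Hippocampi of WT, Mutyh-/-, Ogg1-/- and DKO mice had been dissociated, and nuclei had been sorted with an antibody against NeuN, a neuronal nuclear protein. All 4 genotypes were 6 months old, male and on a C57BL/6N background, received no treatment named in the labels, and animals of a genotype were pooled before chromatin immunoprecipitation. The DKO mice came from crosses of the Ogg1-/- and Mutyh-/- lines, so both deletions were present in every cell from conception and were not restricted to neurons.

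Ogg1 and Mutyh are DNA glycosylases that start base excision repair of oxidised guanine. Ogg1 removes 8-oxoguanine that is paired with cytosine, and Mutyh removes adenine that was placed opposite 8-oxoguanine. H3K4me3 is written by the SET1 and MLL methyltransferase complexes and is erased by KDM5 demethylases. It marks the nucleosomes around active or poised transcription start sites, above all at CpG-rich promoters, and in neurons it covers most promoters of expressed genes.

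A level is given here as CPM, the reads of a peak divided by the TMM-scaled reads in all peaks of its library and put on a common scale. All peaks were 401 bp wide, so that levels may be set beside each other within a mark and sorted fraction. A CPM of another mark or fraction is scaled to its own peaks and reads, and is not comparable with these. The libraries held 266745, 236080 and 292279 reads in peaks for WT replicates 1 to 3 and 96023, 420782 and 427278 for the DKO replicates. DKO replicate 1 was thus the shallowest, with a median of 7 reads per peak against 17 to 33 in the other 5 libraries, and each value of it carries a large counting error. WT replicate 2, DKO replicate 1 and DKO replicate 3 also stood apart in reads at a peak of repeat sequence annotated to Lrrc4c (chr2:98666960-98667360), which took 9489, 1307 and 5214 reads there and 0 in the other 3 libraries. In these 3 libraries 90.5%, 93.6% and 93.8% of reads lay in promoter peaks, against 95.6% to 96.0% in the other 3. The part of this background in the differences below was not tested.

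The labelled cell type was checked against marker genes. Of 10 neuronal markers, 9 had a H3K4me3 peak, among them Rbfox3, which encodes NeuN itself, the synaptic vesicle gene Snap25 and the vesicular glutamate transporter gene Slc17a7, while Gad2 had none. Of 28 markers of other brain cells, 4 had a peak, namely the astrocyte genes Sox9 and Slc1a3 and the oligodendrocyte genes Mbp and Cnp. The 6 microglial and the 6 endothelial and mural markers had no peak. The summed level of the neuronal markers was 852 to 948 CPM in WT and 847 to 913 CPM in DKO, and that of the other markers was 217 to 273 CPM in WT and 230 to 321 CPM in DKO. These sums cover 11 promoter peaks of neuronal and 4 of other markers. They serve to compare the genotypes and give no contrast between the marker sets.

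The promoter peaks that led the comparison lay in CpG-rich sequence, as promoter peaks did in general. The 4 stretches shown here belong to leading peaks whose call did not depend on the scaling, the test or a single library. Each is the longest run of its peak outside annotated exons, cut to 300 bases where longer. The sequences are read 5′ to 3′ on the strand of the gene from the RefSeq genome GRCm38.p6, with CpG dinucleotides in capitals. Those of Arid3a (chr10:79927401-79927663, plus strand) and Ugp2 (chr11:21370629-21370928, minus strand) had more H3K4me3 in DKO. Those of Ppm1k (chr6:57534807-57535106, minus strand) and Adcyap1r1 (chr6:55452628-55452859, plus strand) had less. All 4 lie in introns.
Arid3a: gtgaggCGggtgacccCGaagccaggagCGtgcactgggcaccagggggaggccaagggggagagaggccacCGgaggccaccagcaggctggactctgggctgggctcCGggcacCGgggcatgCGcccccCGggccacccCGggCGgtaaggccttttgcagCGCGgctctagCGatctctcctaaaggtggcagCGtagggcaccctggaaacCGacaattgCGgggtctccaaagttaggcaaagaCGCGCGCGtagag
Ugp2: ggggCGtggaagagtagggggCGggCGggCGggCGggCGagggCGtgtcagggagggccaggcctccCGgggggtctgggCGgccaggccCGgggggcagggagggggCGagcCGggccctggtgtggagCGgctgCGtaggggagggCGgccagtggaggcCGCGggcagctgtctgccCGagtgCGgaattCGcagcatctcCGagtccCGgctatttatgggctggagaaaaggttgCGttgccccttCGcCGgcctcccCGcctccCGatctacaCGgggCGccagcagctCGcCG
Ppm1k: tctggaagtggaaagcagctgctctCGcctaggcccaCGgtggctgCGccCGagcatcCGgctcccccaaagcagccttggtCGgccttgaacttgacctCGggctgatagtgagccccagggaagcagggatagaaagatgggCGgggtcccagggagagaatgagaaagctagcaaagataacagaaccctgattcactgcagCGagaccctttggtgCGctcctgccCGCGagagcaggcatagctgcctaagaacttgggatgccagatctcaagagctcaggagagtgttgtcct
Adcyap1r1: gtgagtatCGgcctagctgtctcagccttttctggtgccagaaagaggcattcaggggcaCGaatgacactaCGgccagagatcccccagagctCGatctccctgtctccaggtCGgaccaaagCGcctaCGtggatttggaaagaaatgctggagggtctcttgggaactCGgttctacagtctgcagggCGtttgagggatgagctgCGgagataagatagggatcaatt
The printed stretches hold 20, 31, 12 and 10 CpG dinucleotides, in the order given. Over whole peaks, the 12 leading peaks higher in DKO had 31 to 67 CpGs and the 12 lower ones 18 to 59, against a median of 35 with quartiles of 25 and 46 over all 11771 promoter peaks. The GC box GGGCGG, read on both strands and containing a CpG itself, was found in 10 of 12 leading peaks in each direction and in 69.3% of all promoter peaks. CCAAT was found in Cox7c and Ago4 alone among the 24, against 23.1% of all promoter peaks. The E-box CACGTG, to which Usf1 protein binds, was found in the peak of Wdr48 and in 7.72% of all promoter peaks. The cAMP response element TGACGTCA, the palindrome of NRF1 and TATAAA, also read on both strands, were not found in the 24 peaks and occurred in 1.29%, 0.62% and 3.15% of promoter peaks.

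Whether loss of both glycosylases went with altered H3K4me3 at single peaks was tested in a limma fit with voom weights. A peak was called a differentially enriched region (DER) where p before adjustment was below 0.05 and the log2 fold change went beyond 0.5 in either direction. There were 668 DERs, which is 5.29% of the 12628 peaks, and the p threshold alone passes 5% by definition where nothing differs. Of these, 264 peaks (2.09%) were higher and 404 peaks (3.2%) were lower in DKO. After Benjamini-Hochberg adjustment in limma, 0 peaks (0%) remained below 0.05. The smallest adjusted p was 0.876, while 690 peaks passed 0.05 before adjustment. The tests of edgeR and DESeq2 also left 0 peaks after adjustment, and 490 and 355 passed before it. None of the peaks named below is therefore shown to differ in these tests once all peaks are taken into account, and p serves only to order them. Exceptions in other fits are given at the end. Each library came from a pool of animals, and the study describes the replicates as independent. The spread behind p was estimated within the 4 genotypes over 12 libraries and moderated across peaks.

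Over all peaks the log2 fold changes had a median of -0.0047. Among the DERs the median size was 0.75 on the log2 scale, and 49 of the higher and 76 of the lower ones went past 1. At promoter peaks the median standard error was 0.31 on the log2 scale and the 95% interval reached a median of 0.63 to each side. When all peaks were split by mean reads into 4 groups, the median standard error was 0.51 in the shallowest and 0.25 in the best covered group. A lower level cannot tell fewer marked nuclei apart from less mark in each nucleus. The range of levels was narrow, with mean levels of 44.9, 81.8, 113 and 132 CPM at the 10th, 50th, 90th and 99th percentile of promoter peaks and 6 promoter peaks above 150 CPM.

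**Figure D1:**
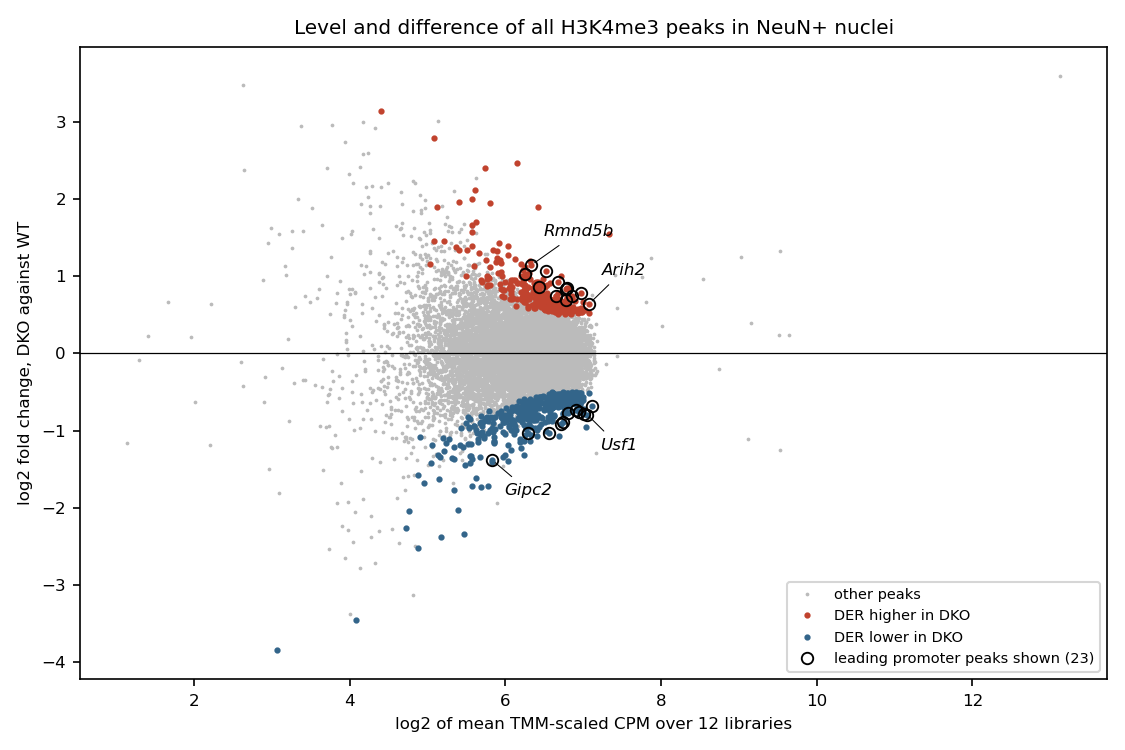
Log2 fold change of DKO against WT (vertical axis) for each of 12628 H3K4me3 peaks in NeuN+ nuclei against log2 of its mean TMM-scaled CPM over 12 libraries (horizontal axis), with DERs in red (264, higher in DKO) and blue (404, lower) and 23 of the 24 leading promoter peaks ringed. The cloud is centred near 0, and the leading peaks are not those with the most extreme fold changes.

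The leading promoter peaks were DERs with all 3 DKO libraries on the same side of all 3 WT libraries. This held for 127 promoter peaks that were higher and 183 that were lower, and over all peaks such DERs made up 1.09% and 1.54%. The 12 genes with the smallest p in each direction are counted together, and 12 higher and 11 lower ones are described by what they do. Since their p-values chose them, their differences are a description. The last of the higher ones, Stard3nl, had p 0.00563 and the first left out, Lrig1, 0.00604 (limma), and for the lower ones these were 0.00222 at Wdr48 and 0.00275 at Galnt3 (limma). No other protein-coding gene had an annotated start within 500 bp of any of the 24 peaks. The limma adjusted p was 0.876 for each of them. Each standard error (SE) is that of the log2 fold change in the fit.

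**Figure D2:**
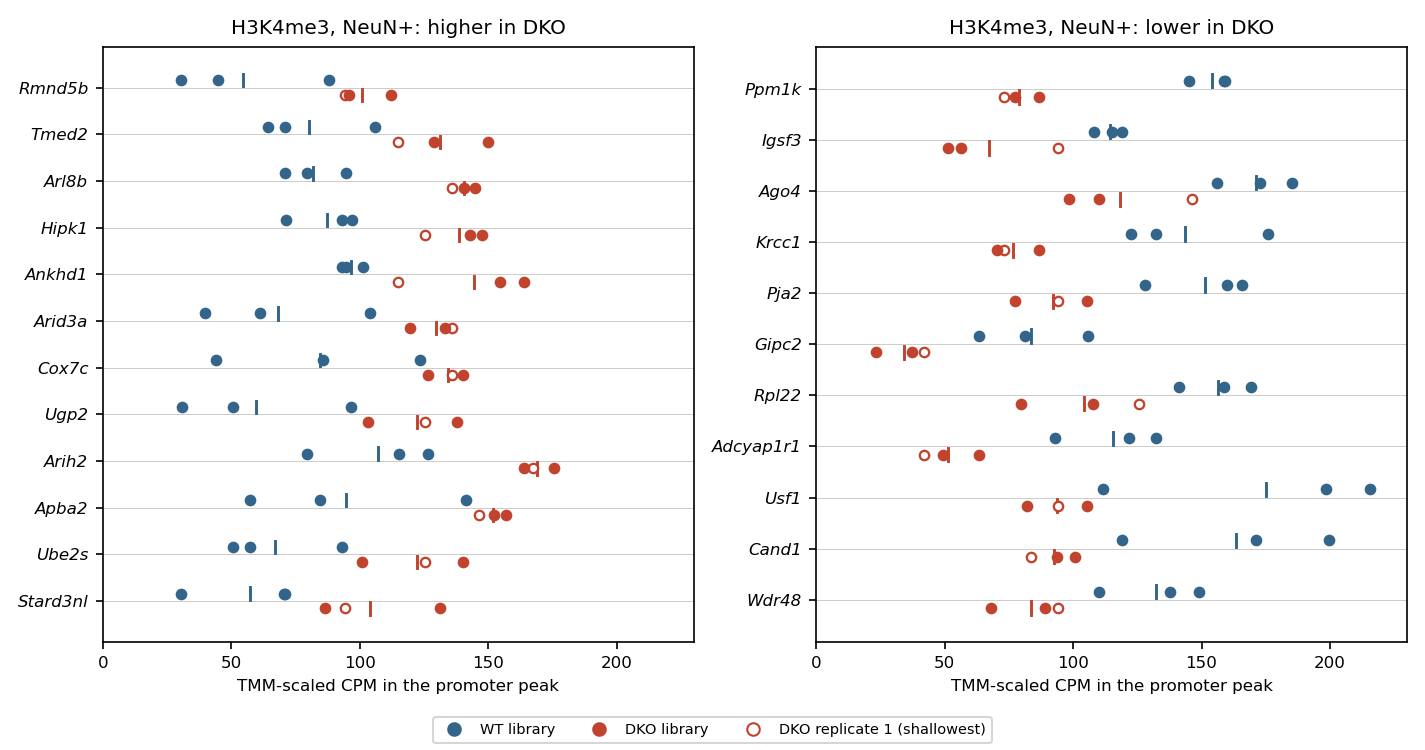
H3K4me3 level in TMM-scaled CPM (horizontal axis) in each WT (blue) and DKO (red) library at 12 leading promoter peaks that were higher and 11 that were lower in DKO, with the mean as a bar and the shallow DKO replicate 1 as an open circle. By the rule that chose them, the groups do not overlap at any of them, and the fitted differences are 1.56-fold to 2.61-fold in size.

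Several leading peaks with more H3K4me3 in DKO belonged to genes of ubiquitin transfer, a grouping made after their values were seen. Rmnd5b encodes a subunit of the CTLH ubiquitin ligase complex, and its peak (chr11:51635437-51635837) had 44.6, 88.1 and 30.5 CPM in WT and 94.1, 112 and 96.0 CPM in DKO. The log2 fold change was 1.14 (SE 0.35), and WT replicate 2 came close to the lowest DKO library. Arih2, a RING-between-RING ligase that acts with cullins, had 126, 79.3 and 115 CPM in WT and 167, 164 and 176 CPM in DKO at chr9:108648832-108649232. Its DKO values lay close together but rested on 16, 70 and 75 reads, with a log2 fold change of 0.64 (SE 0.21). Ube2s, the enzyme that extends ubiquitin chains for the anaphase-promoting complex, had 93.0, 57.3 and 50.8 CPM in WT and 125, 140 and 101 CPM in DKO at chr7:4811944-4812344. Here the log2 fold change was 0.86 (SE 0.29) and the closest libraries were WT replicate 1 and DKO replicate 3.

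Membrane traffic and lysosomes were represented by further genes. Tmed2, a p24 cargo receptor between endoplasmic reticulum and Golgi, had 70.7, 106 and 64.3 CPM in WT and 115, 150 and 129 CPM in DKO at chr5:124541021-124541421 (log2 fold change 0.83, SE 0.26). Arl8b, the small GTPase that moves lysosomes along microtubules, had 70.7, 79.3 and 94.8 CPM in WT and 136, 145 and 140 CPM in DKO at chr6:108783158-108783558. All DKO libraries lay above the WT libraries, with means of 140.5 ± 4.53 and 81.6 ± 12.2 CPM (SD, n = 3 each) and a log2 fold change of 0.78 (SE 0.24). The DKO values rested on 13, 62 and 60 reads, so that their small SD is no measure of precision. Stard3nl, a late endosomal protein at contacts with the endoplasmic reticulum, had 70.7, 70.5 and 30.5 CPM in WT and 94.1, 86.5 and 131 CPM in DKO, with the widest interval of these 12 peaks, from 0.32 to 1.75 on the log2 scale. Apba2 (Mint2), an adaptor that binds the amyloid precursor protein and the exocytosis protein Munc18, had 141, 57.3 and 84.6 CPM in WT and 146, 157 and 152 CPM in DKO. WT replicate 1 lay just under the DKO libraries there.

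The other leading peaks with more H3K4me3 included regulators and metabolic genes. Hipk1, a nuclear kinase that phosphorylates transcription factors, had 93.0, 97.0 and 71.1 CPM in WT and 125, 147 and 143 CPM in DKO at chr3:103790797-103791197 (log2 fold change 0.75, SE 0.23). Arid3a, a DNA-binding transcription factor whose sequence is printed above, had 104, 39.7 and 60.9 CPM in WT and 136, 133 and 119 CPM in DKO (log2 fold change 0.92, SE 0.29). Its WT libraries were spread far more widely than its DKO libraries. Ankhd1, an ankyrin repeat and KH domain protein, had 93.0, 101 and 94.8 CPM in WT and 115, 164 and 154 CPM in DKO, while a second promoter peak of the gene had a log2 fold change of -0.0026 (SE 0.30). Cox7c, a subunit of cytochrome c oxidase in the respiratory chain, had 85.5, 123 and 44.0 CPM in WT and 136, 140 and 126 CPM in DKO at chr13:86046261-86046661 (log2 fold change 0.84, SE 0.27). Ugp2, which makes UDP-glucose for glycogen and glycosylation, had 96.7, 30.9 and 50.8 CPM in WT and 125, 138 and 103 CPM in DKO, a log2 fold change of 1.06 (SE 0.35). At both Cox7c and Ugp2 the highest WT library came close to the lowest DKO library.

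The lower peaks reached smaller p-values than the higher ones, and genes of mitochondrial metabolism and signalling were among them. Ppm1k, the mitochondrial phosphatase that switches on breakdown of branched-chain amino acids, had 145, 159 and 159 CPM in WT and 73.2, 77.2 and 86.6 CPM in DKO at chr6:57534807-57535207. The DKO values rested on 7, 33 and 37 reads, and the peak was picked by p and separation. Its small SDs are therefore no measure of precision. The groups had means of 154 ± 7.99 and 79.0 ± 6.88 CPM (SD, n = 3 each) and a log2 fold change of -0.91 (SE 0.24). Over 14 alternative scalings, tests and filters its adjusted p ranged from 0.12 to 1.00. Adcyap1r1 encodes PAC1, the receptor of the neuropeptide PACAP, which signals through cAMP, and its peak (chr6:55452459-55452859) had 93.0, 132 and 122 CPM in WT and 41.8, 63.2 and 49.1 CPM in DKO. This is a log2 fold change of -1.03 (SE 0.31), with a clear gap between the groups. Pja2, a ubiquitin ligase that degrades regulatory subunits of the cAMP-dependent kinase PKA, had 160, 128 and 166 CPM in WT and 94.1, 105 and 77.2 CPM in DKO (log2 fold change -0.76, SE 0.22).

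Genes that act on RNA, transcription and ubiquitin made up most of the other lower peaks. Ago4, an Argonaute protein that binds small RNAs, had 156, 185 and 173 CPM in WT and 146, 110 and 98.3 CPM in DKO, so that DKO replicate 1 came close to WT (log2 fold change -0.68, SE 0.19). Rpl22, a protein of the large ribosomal subunit, had 141, 159 and 169 CPM in WT and 125, 108 and 79.6 CPM in DKO (log2 fold change -0.74, SE 0.22). Usf1, a transcription factor that binds E-boxes, had the highest WT mean of the 24 peaks with 216, 198 and 112 CPM, against 94.1, 81.9 and 105 CPM in DKO (log2 fold change -0.80, SE 0.24). WT replicate 3 stood well under the other 2 WT libraries at this peak, and without it the limma adjusted p was 0.0454, against 0.876 with it. Cand1, which exchanges substrate receptors on cullin ubiquitin ligases, had 171, 119 and 200 CPM in WT and 83.7, 101 and 93.6 CPM in DKO (log2 fold change -0.78, SE 0.23). Wdr48 (UAF1), the activating partner of the deubiquitinase Usp1 in DNA damage repair, had 138, 110 and 149 CPM in WT and 94.1, 88.9 and 67.9 CPM in DKO (log2 fold change -0.77, SE 0.24).

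The remaining lower peaks were those of Igsf3, Krcc1 and Gipc2. Igsf3, an immunoglobulin superfamily membrane protein, had 115, 119 and 108 CPM in WT and 94.1, 51.5 and 56.2 CPM in DKO (log2 fold change -1.03, SE 0.27). Krcc1 had 123, 132 and 176 CPM in WT and 73.2, 86.5 and 70.2 CPM in DKO (log2 fold change -0.89, SE 0.25). Gipc2, a PDZ domain adaptor, had the largest fold change of the 24 peaks, with 63.2, 106 and 81.2 CPM in WT and 41.8, 23.4 and 37.4 CPM in DKO. Its log2 fold change of -1.38 (SE 0.40) rested on 4, 10 and 16 reads in the DKO libraries. The smallest p over all peaks belonged to a peak outside this selection, chosen after its values were seen, at the promoter of the endosomal protein gene Zfyve16. It had 104, 181 and 149 CPM in WT and 105, 58.5 and 70.2 CPM in DKO (log2 fold change -1.07, SE 0.26, limma adjusted p = 0.876), and DKO replicate 1 overlapped WT.

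Because DKO replicate 1 gave 4 to 16 reads at each of the 24 peaks, the fit was repeated without it, and all 12 higher and all 12 lower peaks were again DERs. The peaks had been picked by p and separation in these same libraries, so a kept call gives no independent support. Leaving out each of the 6 libraries in turn kept all 12 lower peaks as DERs in every fit and 8 of the 12 higher ones. Cox7c, Ube2s and Stard3nl lost the call without WT replicate 3, Stard3nl also without DKO replicate 3, and Arih2 without WT replicate 2. Cox7c then had a log2 fold change of 0.39, the lowest of these values. With the values as the authors scaled them, tested with limma-trend on log2 of the value plus 1, 3 higher peaks (Rmnd5b, Arid3a and Ugp2) and 6 lower peaks (among them Ppm1k, Krcc1, Gipc2, Adcyap1r1 and Usf1) were still DERs.

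**Figure D3:**
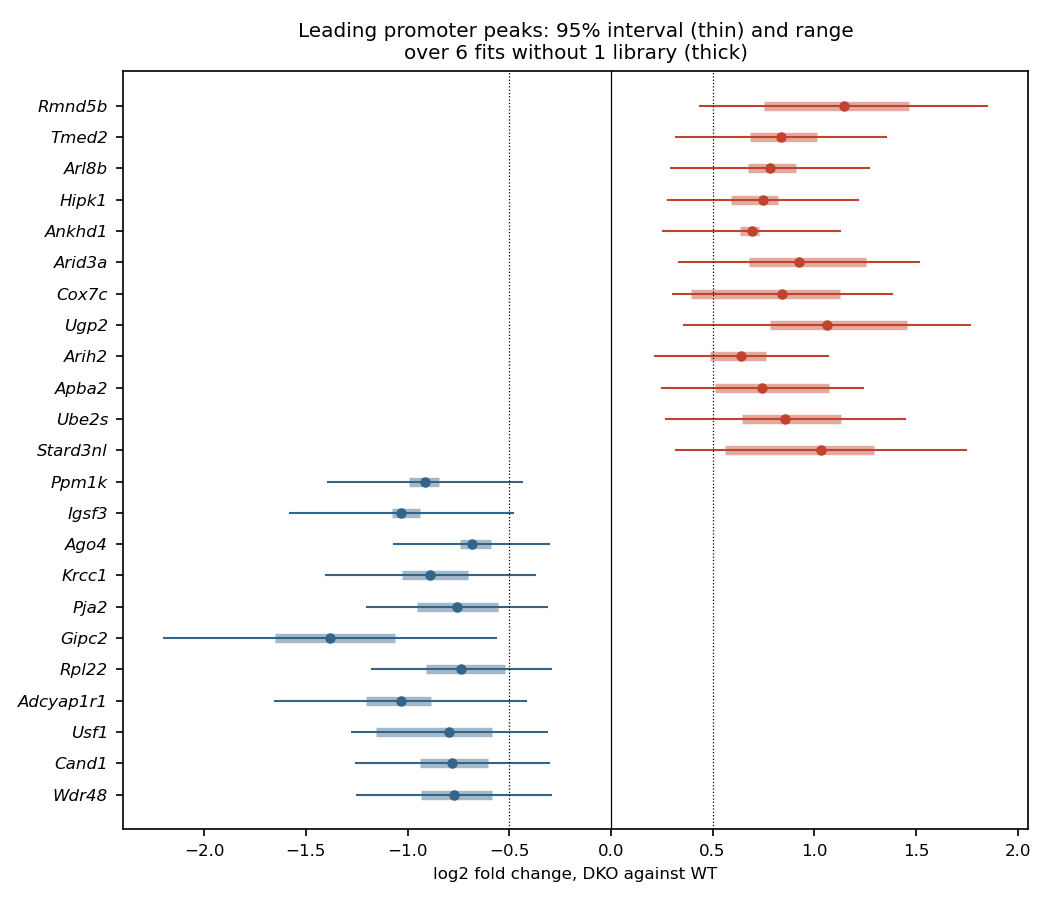
Log2 fold change of DKO against WT (horizontal axis) for 23 of the 24 leading promoter peaks, with the estimate as a point, its 95% interval as a thin line and the range over the 6 fits without 1 library as a thick bar; dotted lines stand at -0.5 and 0.5. The bars of the higher peaks run from 0.39 to 1.46 and those of the lower peaks from -1.65 to -0.52, and the bar of Ankhd1 is the narrowest.

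Outside promoters, 857 peaks were tested, with 19 higher and 20 lower DERs (4.55%, against 5.34% of promoter peaks). The leading higher ones with separated groups were a distal peak annotated to 4930441H08Rik with 55.8, 44.1 and 16.9 CPM in WT and 105, 95.9 and 81.9 CPM in DKO, a distal peak annotated to Vmn1r238 and an intronic peak of Fpr2, a formyl peptide receptor gene. The Vmn1r238 peak is repeat-masked over 47.6% of its bases, and it overlapped an H3K27me3 and a Suz12 peak of NeuN+ nuclei. In WT neurons these had means of 2192 and 1073 CPM, each on the scale of its own mark. The lower ones were a distal peak of Shf, an exonic peak of Tiam2 and an intronic peak of Slc35f1. Shf, which encodes an SH2 adaptor protein, had 78.1, 106 and 102 CPM in WT and 52.3, 25.7 and 58.5 CPM in DKO (log2 fold change -1.23, SE 0.38), and its promoter peak was also a lower DER with 110 CPM in WT and 60.4 CPM in DKO (log2 fold change -0.62, SE 0.30). Its 3' UTR peak was not a DER, with a log2 fold change of 0.70 (SE 0.60). Tiam2, an activator of the GTPase Rac1, had 52.1, 52.9 and 60.9 CPM in WT and 31.4, 35.1 and 11.7 CPM in DKO at a peak that also holds the start of the pseudogene Gm6475. Slc35f1, a brain-expressed transporter-like gene, had 85.5, 74.9 and 81.2 CPM in WT and 10.5, 44.4 and 35.1 CPM in DKO, and its promoter peak had a log2 fold change of -0.42 (SE 0.26).

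The targeted genes could serve only in part as a check of the labels, since H3K4me3 at a promoter need not be lost with a deletion in the gene body. Mutyh had no consensus peak. The promoter peak of Ogg1 (chr6:113326823-113327223) had 44.6, 26.4 and 33.8 CPM in WT and 0, 42.1 and 16.4 CPM in DKO, which is 12, 6 and 10 reads against 0, 18 and 7. The groups overlapped, with a log2 fold change of -0.63 (SE 0.78, limma adjusted p = 0.942). The intronic peak of Filip1l, named because of an earlier fit of the same values, had 81.8, 66.1 and 30.5 CPM in WT and 345, 77.2 and 293 CPM in DKO, so that DKO replicate 2 lay close to the WT libraries. The same place held a mean of 4739 CPM of H3K27me3 and 6278 CPM of Suz12 in WT neurons, each on the scale of its own mark. The promoter peak of Filip1l had a log2 fold change of -0.22 (SE 0.31).

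The single knockouts were measured against the same 3 WT libraries, so their values are set beside those of DKO without a count of shared directions. At Ppm1k the mean level was 154 CPM in WT, 83.7 ± 19.7 in Mutyh-/-, 102 ± 29.6 in Ogg1-/- and 79.0 ± 6.88 CPM in DKO (SD, n = 3 each). Adcyap1r1 had 116 CPM in WT, 70.2 ± 18.4 in Mutyh-/-, 75.4 ± 7.81 in Ogg1-/- and 51.4 ± 10.8 CPM in DKO. Both single knockouts lay between WT and DKO in their means at both genes. The choice of peaks with DKO and WT far apart favours such a place, so no graded effect is read from it. Arl8b had 81.6 CPM in WT, 119 ± 13.3 in Mutyh-/-, 159 ± 20.7 in Ogg1-/- and 140.5 ± 4.53 CPM in DKO. At Hipk1 the means were 87.0 CPM in WT, 82.4 ± 5.92 in Mutyh-/-, 95.3 ± 7.78 in Ogg1-/- and 139 ± 11.5 CPM in DKO, and at Ankhd1 they were 96.4, 93.9, 105 and 144 CPM. At Hipk1 and Ankhd1 the single knockouts had mean levels nearer to WT than to DKO. Rmnd5b, in contrast, had 54.4 CPM in WT, 96.3 in Mutyh-/-, 71.1 in Ogg1-/- and 101 CPM in DKO. These genes are examples, and differences between the knockouts were not tested.

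In non-neuronal (NeuN-) nuclei, 3270 H3K4me3 peaks were tested in the same way, and 11 of the 24 leading promoter peaks overlapped a peak there. Of these 11, all DKO libraries lay above all WT libraries at 0 peaks and below them at 2 peaks, Hipk1 and Ugp2, against 5.23% and 5.32% of all NeuN- peaks. None of the named peaks that overlapped one had an adjusted p under 0.05 in limma, for H3K4me3 in NeuN- nuclei as for H3K27me3 and Suz12 in NeuN+ nuclei. Igsf3 had a log2 fold change of 0.84 (SE 0.49) in NeuN- nuclei, Usf1 of 1.09 (SE 0.70) and Ppm1k of -0.20 (SE 0.96). These errors are larger than in NeuN+ nuclei, and the values do not tell whether the fractions differ. Of the higher DERs, 31.4% overlapped a NeuN- H3K4me3 peak, of the lower DERs 23.3%, and of all peaks 23.8%. A consensus peak of the Polycomb protein Suz12 in NeuN+ nuclei overlapped 1.86% of all peaks. The DERs were near that share, with 5 of the 264 higher (1.89%) and 6 of the 404 lower ones (1.49%). Those at promoters included Fam110d and the apoptosis gene Bcl2l11 among the higher ones and Ptprm, Tmem267 and Plekhg3 among the lower ones. H3K27me3 peaks overlapped 1.52% of the higher, 0.743% of the lower DERs and 1.58% of all peaks.

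Gene lists for neuronal function, DNA repair, chromatin and energy metabolism were read against the 5.29% of all peaks that were DERs and the median log2 fold change of -0.0065 of all promoter peaks. In the axon guidance list, 45 of 49 genes had a promoter peak, and 3 of 47 promoter peaks (6.38%) were DERs, all lower, with a median log2 fold change of -0.11. They were the semaphorin genes Sema4c, with 130, 123 and 91.4 CPM in WT and 73.2, 86.5 and 56.2 CPM in DKO, and Sema6d, with 171, 137 and 115 CPM in WT and 73.2, 108 and 88.9 CPM in DKO, and the adhesion gene Chl1, whose groups overlapped. A second promoter peak of Sema6d had a log2 fold change of 0.27 (SE 0.30). In the glutamatergic synapse list, 2 of 53 peaks (3.77%) were lower DERs, among them the scaffold gene Dlg1, whose groups overlapped, and the median log2 fold change of the list was -0.037. Another promoter peak of Dlg1 had a log2 fold change of 0.012 (SE 0.22).

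Among the immediate early genes, which answer to neuronal activity, 24 of 24 had a promoter peak, with 1 higher and 2 lower DERs of 30 peaks (10.0%) and a median log2 fold change of -0.011. Bdnf, the neurotrophin of synaptic plasticity, had 96.7, 137 and 132 CPM in WT and 52.3, 63.2 and 86.6 CPM in DKO at the peak concerned (log2 fold change -0.71, SE 0.29), and a second promoter peak of the gene had a log2 fold change of 0.25 (SE 0.29). Egr4 had 108, 101 and 129 CPM in WT and 94.1, 79.5 and 65.5 CPM in DKO. Egr1 was higher in the fit but its groups overlapped widely, with 26.0, 115 and 74.5 CPM in WT and 73.2, 81.9 and 129 CPM in DKO.

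In the DNA repair list, 36 of 47 genes had a promoter peak, and 2 of 36 (5.56%) were lower DERs, with a median log2 fold change of -0.095. Apex1, the endonuclease that cuts the site left by a glycosylase, had 89.2, 66.1 and 102 CPM in WT and 41.8, 51.5 and 46.8 CPM in DKO (log2 fold change -0.82, SE 0.33). Brca2, of homologous recombination, had 89.2, 123 and 105 CPM in WT and 31.4, 81.9 and 58.5 CPM in DKO. At both genes all DKO libraries lay under all WT libraries. The other DNA glycosylases with a promoter peak, Neil1, Neil2, Nthl1, Ung, Smug1, Tdg and Mpg, were not DERs, with log2 fold changes from -0.68 at Mpg to 0.23 at Nthl1. Among PRC2 subunits and enzymes that write or erase H3K4 methylation, 3 of 28 promoter peaks (10.7%) were DERs, with a median of -0.14. Setd1a, the catalytic subunit of a SET1 complex that writes H3K4me3, had 85.5, 110 and 67.7 CPM in WT and 41.8, 53.8 and 37.4 CPM in DKO (log2 fold change -0.89, SE 0.35), and Kmt2d, an enhancer H3K4 methyltransferase, had 66.9, 88.1 and 74.5 CPM in WT and 105, 129 and 112 CPM in DKO (log2 fold change 0.65, SE 0.26). These enzymes differed in direction, and the histone-binding PRC2 subunit gene Rbbp4 was lower in the fit with overlapping groups.

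In the list of nuclear genes of mitochondrial respiration, 4 of 44 promoter peaks (9.09%) were DERs, all higher, while 22 peaks lay above and 22 below 0 and the median was -0.0055. Besides Cox7c, these were the complex III gene Uqcrc2, with 112, 97.0 and 74.5 CPM in WT and 125, 124 and 140 CPM in DKO, the complex I gene Ndufc2, and the ATP synthase gene Atp5g1, with overlapping groups for the last 2. Of the chaperone and proteasome genes, 2 of 29 (6.9%) were higher DERs, with a median of 0.12. The cochaperone gene Dnaja1 had 66.9, 61.7 and 54.1 CPM in WT and 125, 103 and 88.9 CPM in DKO, and the chaperonin gene Cct3 overlapped. Developmental transcription factors had a promoter peak at 17 of 62 genes, with Glis1 as the only DER of 19 peaks (5.26%, higher, 50.7 ± 13.6 CPM in WT and 86.0 ± 11.6 CPM in DKO, SD, n = 3 each) and a median of -0.029. In the antioxidant defence and myelination lists, 0 of 22 and 0 of 12 promoter peaks were DERs, with medians of -0.016 and -0.0074. No list held a peak with an adjusted p under 0.05 in limma.

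**Figure D4:**
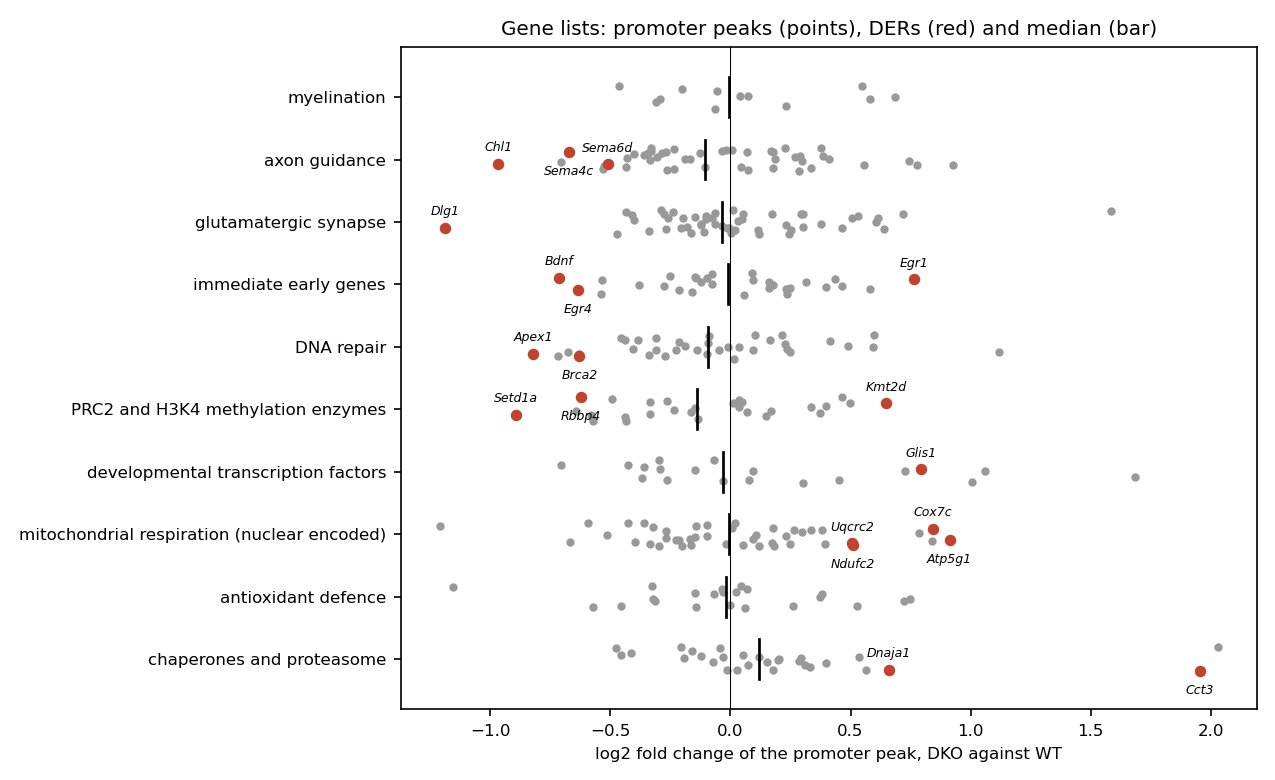
Log2 fold change of DKO against WT (horizontal axis) at each promoter peak of the 10 gene lists (rows), with DERs in red and named, peaks of 1 gene left out, and the median of each list as a bar. All medians lie between -0.14 and 0.12, and the DERs of a list stand on both sides of 0 for immediate early genes and for PRC2 and H3K4 methylation enzymes.

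The promoter DERs resembled all promoter peaks in GC content and CpG ratio, while the share of DERs differed with read depth. Median GC content was 67.3% for the higher and 66.7% for the lower promoter DERs, against 67.1% for all promoter peaks, and the observed to expected CpG ratio was 0.8 in each. The median level was 86.3, 83.6 and 81.8 CPM, in the same order. When peaks were split by mean reads into 4 groups of near equal size, 3.51% of the shallowest group were DERs, with 29 higher and 83 lower, against 5.68% to 6.06% in the other 3. The best covered group had 80 higher and 99 lower DERs. Chromosomes 14 and 1, picked after their values were seen, had 1 higher and 18 lower DERs of 430 peaks and 9 higher and 35 lower DERs of 745 peaks. All reads in peaks summed to 265035 ± 28139 in WT and 314694 ± 189403 in DKO (SD, n = 3 each), a log2 ratio of 0.25, which reflects sequencing depth and gives no measure of the total H3K4me3 of the nuclei.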

How the data were processed

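H3K4me3 ChIP-seq of NeuN+ hippocampal nuclei was analysed in 3 WT and 3 DKO libraries, with 3 Mutyh-/- and 3 Ogg1-/- libraries in the same fit. Per the study's methods and the submitters' processing notes, the authors aligned reads to GRCm38 with Bowtie2 2.3.5.1, called peaks with epic2, a reimplementation of SICER, kept peaks found in at least 2 of 3 replicates, counted reads with DiffBind 3.10.1 and annotated peaks with ChIPseeker 1.36. How duplicate reads and input libraries were treated is not given in the sources used here. The deposited signal is reads times 1 factor per library. Dividing by it gave whole reads for 100% of values (tolerance 0.05 reads), so the depth is known.

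Recovered reads were scaled with TMM factors (edgeR 4.0.16) and tested in limma 3.58.1 with voom weights (reads plus 0.5), genotype as the only term, in R 4.3.3, with Benjamini-Hochberg adjustment over all 12628 peaks. The same fit was used for the other marks. Scripts were tested on simulated data. The named promoter peaks are DERs with separated groups, 12 per direction by p, 1 per gene, plus 3 other peaks per direction, Ogg1, Mutyh, Filip1l and up to 4 DERs per gene list. The members and lists were chosen with earlier results of these data known. Other scalings, tests (DESeq2 1.42.0), filters and left-out libraries were tried. The study describes the replicates as independent. In limma the spread behind p-values came from all 12 libraries, with 8 residual degrees of freedom. It was moderated across peaks with 33 prior degrees of freedom. Intervals cover counting error and replicate spread only as far as 3 libraries a group show it. A few genes are not reported here, though they stay in the fit and in all counts and medians.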

Additional observations from a re-analysis of the deposited data

Results flagged for a closer look

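Hipk1 and Ugp2 drew attention because the DKO libraries lay on opposite sides of WT in the 2 sorted fractions. In NeuN+ nuclei every DKO library had more H3K4me3 than every WT library at both promoters. In NeuN- nuclei the overlapping peak of Hipk1 had 90.6, 106 and 82.4 CPM in WT and 65.4, 40.2 and 73.9 CPM in DKO, a log2 fold change of -0.67 (SE 0.79). The overlapping peak of Ugp2 had 121, 158 and 185 CPM in WT and 58.1, 93.9 and 18.5 CPM in DKO, a log2 fold change of -1.41 (SE 0.73). At both peaks, every DKO library lay below every WT library in NeuN- nuclei. The NeuN- libraries had a median of 8, 11 and 5 reads per peak in WT and 16, 8 and 6 in DKO. The NeuN- values thus carry a large counting error. The difference between fractions was not tested, and the adjusted p of the NeuN- fit in limma was 0.867 and 0.757. They are 2 of 11 leading peaks that overlapped a NeuN- peak, and they were picked for their separation in both fractions. At the other 9 the groups overlapped in NeuN- nuclei, and over all 3270 NeuN- peaks 5.32% had every DKO library below every WT library.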

How the results depend on the processing

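DKO replicate 1, with 96023 reads in peaks, and 3 libraries a group limit what single promoters can show. Against 668 DERs, 264 higher and 404 lower, the values as the authors scaled them gave 185, with 61 higher and 124 lower. DESeq2 gave 355, with 170 higher and 185 lower, and edgeR gave 262 lower DERs. Of the 668, edgeR shared 372, DESeq2 263 and the authors' scaling 85. Leaving out 1 library gave 134 to 411 higher DERs, the lowest without WT replicate 3 and the highest without DKO replicate 3, with 408 without DKO replicate 2, and 0 to 3 peaks with an adjusted p under 0.05. The 1 such peak without WT replicate 3 was Usf1. The log2 ratio of summed reads ran from -0.037 to 0.68, was -0.019 without DKO replicate 2 and fell below 0 without either deep DKO library. The promoter peak of Filip1l, at -0.22, was 0.059 with the authors' scaling, 0.068 with limma-trend and -0.48 to 0.057 with 1 library left out. A replicate block gave 709 DERs, 462 of them shared, and 9 peaks with an adjusted p under 0.05. Among these were the distal peak of Vmn1r238 and the intronic peak of Filip1l, with limma adjusted p of 0.0011 and 0.047. The smallest limma adjusted p of the replicate block fit was 1.7e-13, at another peak. The peaks of Vmn1r238 and Filip1l both lost the DER call with robust empirical Bayes and without WT replicate 3. That of Filip1l was also lost without DKO replicate 3. That of Vmn1r238 was also lost with DESeq2 and when the peaks with the fewest mean reads were left out. The same-numbered WT and DKO libraries themselves had Spearman correlations of 0.47, 0.57 and 0.64. A separate check of pairing, which did not compare the levels as such, gave correlations of 0.014, -0.094 and -0.048 for them. In that check libraries with different numbers ran from -0.046 to 0.115, and its values do not tell whether the numbers pair the samples. For the named peaks, 618 of the alternative values kept their direction and side of the threshold, 34 lost the call and 3 changed sign. The causes were not tested.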
